A study of Mus musculus with 10 samples.

Results

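Messenger RNA of 41 genes of the extracellular matrix and of the stromal cells that make it was followed in CT26 tumours of mice fed with or without arginine. CT26 is a colon carcinoma line of BALB/c mice, and it was grown under the skin of mice of that strain, 5 weeks old at the start. Of the 10 tumour libraries, each called a tumour here, 5 came from mice on an arginine-deficient diet and 5 from mice on a normal diet of equal calories. Mice had been put on their diet at random by body weight 1 week before implantation, and the tumours were taken on day 20 for total RNA. A single transplanted line under the skin is a model without the surroundings of the colon.

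The 41 genes were chosen by name from the 21849 genes of the count table, with earlier results of these data known. They were 18 collagen chains, 4 thrombospondins, 5 other matrix glycoproteins, 3 small leucine-rich proteoglycans, 4 elastic fibre proteins, 3 cross-linking enzymes and 4 markers of stromal cells. Enough counts to be tested were present for 39 of them. The others were Col11a1, with at most 1.23 CPM (counts scaled to a common library total) in any library, and Thbs3, which is listed at 0 in all 10. All exonic bases of Thbs3 lie inside the body of another gene, and its 0 is not read as absence.

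Collagens are triple helices of chains in which glycine recurs at a fixed step and proline is abundant. Fibroblasts fold and secrete them, and enzymes of the lysyl oxidase family then link the fibrils. Fibrillar collagens carry load, the type IV network underlies epithelium and vessels, and thrombospondins, periostin, tenascin and SPARC are secreted proteins that tune how cells hold to that matrix. In tumours such genes mark the fibroblast-rich stroma, and several are also made by carcinoma cells, pericytes and macrophages.

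The libraries held 12013178 to 31530123 counts each, and 12929 genes could be tested. Over all of these, 7 rose with the arginine-deficient diet and 0 fell at a Benjamini-Hochberg adjusted p under 0.05 in edgeR, and 458 higher and 413 lower had an unadjusted p under 0.05. Mitochondrially encoded genes took 9.97% of counts in deficient replicate 3 and 1.67% to 4.44% elsewhere, and that library had the steepest fall of abundance with GC content (slope -0.52 log2 units per 10 percentage points, against -0.33 to 0.37 elsewhere). Skeletal muscle markers summed to 8578 CPM in deficient replicate 3, 2096 CPM in deficient replicate 4 and 767 CPM in normal replicate 4, and to at most 104 CPM in the other libraries.

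Of the 39 tested matrix genes, 1 passed the adjusted threshold, against 0.0541% of all genes tested. It was Mamdc2, which was higher on the deficient diet. Because the members were chosen with earlier results of these data known, the shares given here describe the set and do not test it. At an unadjusted p under 0.05 there were 5, Mamdc2, Thbs1 and Eln higher and Thbs2 and Col8a1 lower, against 6.74% of all genes tested. Tumours of the 2 diets kept apart, with no overlap, in 2 of the 39, Mamdc2 and Thbs2, against 1.65% of all genes. DESeq2 called Mamdc2 and Thbs2 (2 of 39, against 0.949% of all genes), limma voom with sample weights called those and Col8a1 (3 of 39, against 2.88%), and edgeR with the GC and gene length slopes of each library as covariates called Mamdc2 and Thbs2 (2 of 39, against 0.526%). The direction was even: 19 lay higher and 20 lower, with a median log2 fold change of -0.0075, beside 0.0012 over all genes tested. In 34 of the 39 the log2 fold change was under 0.4 in size. The median standard error was 0.27 for these genes and 0.18 over all tested genes. The labels do not say that each library came from a separate mouse, so the p-values measure the spread between these libraries, which may be technical.

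**Figure D1:**
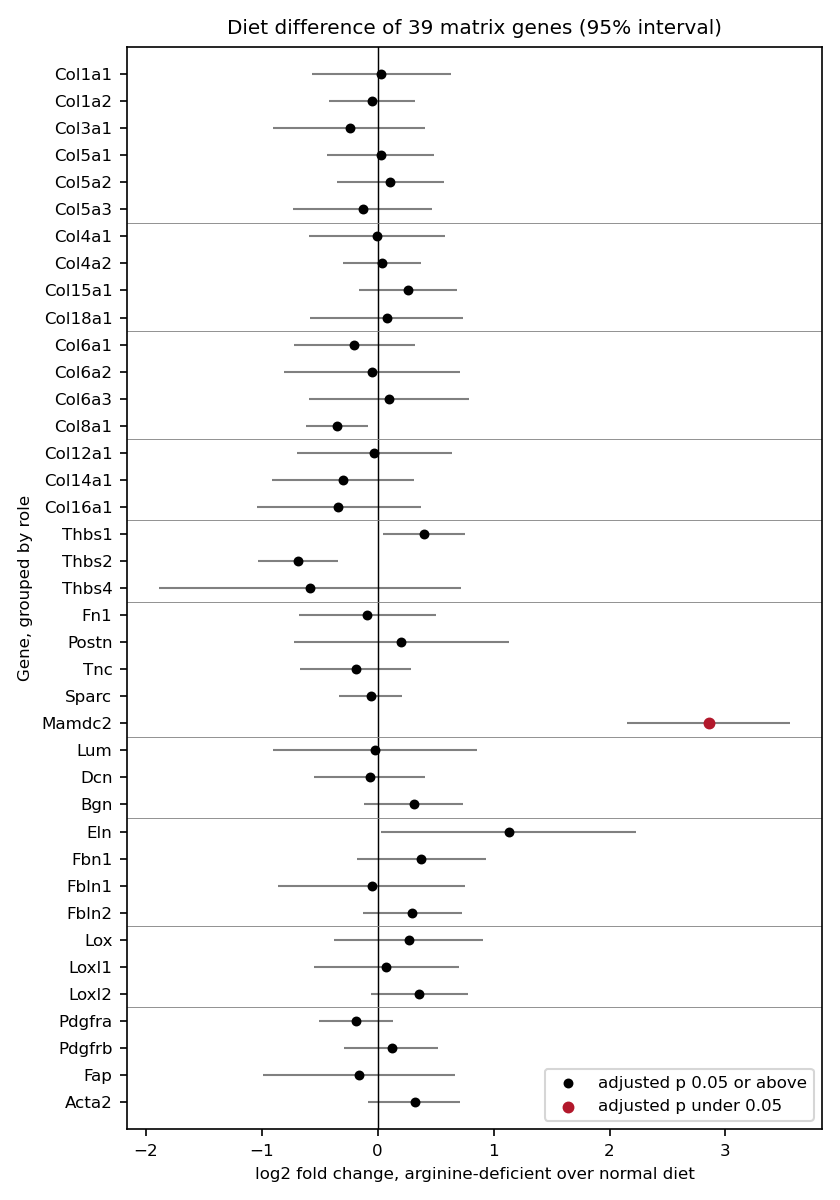
Log2 fold change (horizontal axis, arginine-deficient over normal diet) of the 39 tested matrix genes, ordered by role with lines between roles. Points are edgeR estimates with 95% intervals over 5 tumours per diet. Mamdc2, at 2.86, stands apart from the others, which lie between -0.69 and 1.13.

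Mamdc2 encodes a secreted protein with MAM domains, a proteoglycan of the matrix also called mamcan. It had 6.88, 8.51, 3.53, 3.02 and 5.26 CPM in arginine-deficient replicates 1 to 5, against 0.648, 0.795, 0.639, 0.817 and 0.841 CPM in normal-diet replicates 1 to 5. Every deficient tumour was above every normal one. The spread among deficient tumours was wide where the normal ones were nearly level, a description with no test at 10 to 17 counts per normal library. The values rest on 217, 142, 97, 70 and 73 counts in the deficient libraries and on 12, 17, 15, 16 and 10 counts in the normal ones. Mamdc2 averaged 5.44 ± 2.29 CPM in deficient tumours and 0.748 ± 0.0972 CPM in normal-diet tumours (SD, n = 5 each). The log2 fold change was 2.86 (SE 0.32, 95% interval 2.15 to 3.56, adjusted p = 0.00802 by edgeR), a 7.25-fold difference. The call was lost without normal replicate 1 (adjusted p = 0.0642 by edgeR) and without normal replicate 3 (adjusted p = 0.0615 by edgeR), with log2 fold changes of 2.81 and 2.80. It was also lost with the replicate number as a block (log2 fold change 2.76, adjusted p = 0.0818 by edgeR). The deficient tumours with most Mamdc2, replicates 1 and 2, were poor in muscle markers (12.3 and 15.3 CPM), and without the 3 libraries richest in muscle its log2 fold change was 3.24. Per kilobase of exon the gene stayed among the scarcest of the set, at 0.895 CPM over all tumours. It spans positions 23302609 to 23448442 of chromosome 19 on the minus strand (mm10).

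The thrombospondins bind cells and matrix proteins, and Thbs1 and Thbs2 are known as inhibitors of vessel growth. Thbs2 had 328, 264, 195, 299 and 276 CPM in deficient replicates 1 to 5, against 413, 462, 472, 518 and 328 CPM in normal replicates 1 to 5. The deficient tumours all lay below the normal ones, although deficient replicate 1 and normal replicate 5 nearly met. Thbs2 averaged 272 ± 49.5 CPM in deficient tumours and 439 ± 72.1 CPM in normal-diet tumours (SD, n = 5 each), a log2 fold change of -0.69 (SE 0.16, 95% interval -1.03 to -0.34). It did not pass over all genes in edgeR (adjusted p = 0.238) but passed in DESeq2 (adjusted p = 0.0136), in limma voom (adjusted p = 0.00419) and in edgeR with GC and gene length slopes (adjusted p = 0.024). The lowest value, 195 CPM, was that of deficient replicate 3, the library richest in muscle and mitochondrial counts, and without it the log2 fold change was -0.58. Without the 3 libraries richest in muscle it was -0.53 (adjusted p = 0.362 by edgeR). Thbs2 lies at positions 14665500 to 14694235 of chromosome 17 on the minus strand.

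Thbs1 leaned the other way. It had 99.2, 121, 114, 76.5 and 79.7 CPM in deficient replicates 1 to 5, against 79.8, 70.8, 63.4, 93.8 and 63.6 CPM in normal replicates 1 to 5. Deficient replicates 1, 2 and 3 were above every normal tumour, whereas deficient replicates 4 and 5 lay inside the normal range. The means were 98.1 ± 19.9 CPM in deficient tumours and 74.3 ± 12.8 CPM in normal-diet tumours (SD, n = 5 per diet; log2 fold change 0.40, SE 0.16; edgeR adjusted p = 0.651). Set against each other within a tumour, Thbs1 counts were 0.303, 0.458, 0.585, 0.256 and 0.288 of Thbs2 counts in deficient replicates 1 to 5, and 0.193, 0.153, 0.134, 0.181 and 0.194 in normal replicates 1 to 5. The ratio was higher in every deficient tumour, but it was formed after the values of both genes had been seen and has no test. Thbs4, a thrombospondin of muscle and tendon, ran from 3.42 to 18.1 CPM in deficient and from 2.43 to 30.8 CPM in normal tumours (log2 fold change -0.58, SE 0.60). Without normal replicate 4 it was -0.14, without deficient replicate 3 -0.92 and without the 3 libraries richest in muscle -1.14. Normal replicate 4 was the highest of the 10, at 30.8 CPM. Deficient replicates 3 and 4, which like it were rich in muscle, had 18.1 and 16.4 CPM, against 15.1 and 18.1 CPM in normal replicates 3 and 5, with muscle at 104 and 16.6 CPM.

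**Figure D2:**
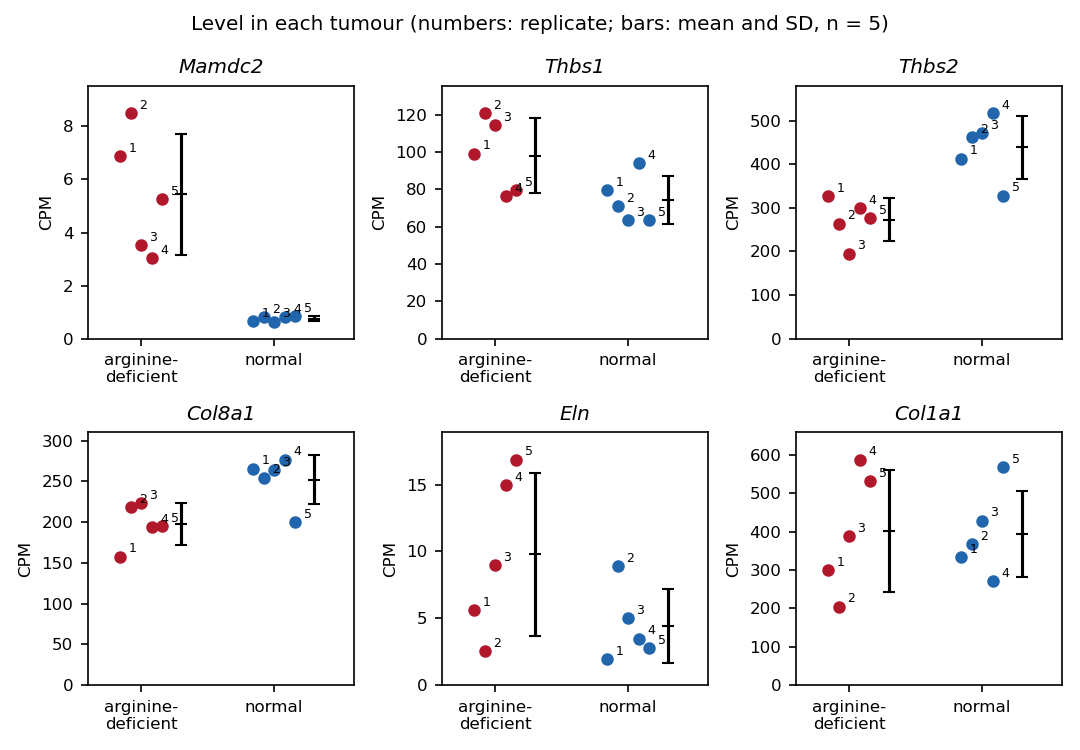
CPM in each tumour (vertical axes from 0) for Mamdc2, Thbs1, Thbs2, Col8a1, Eln and Col1a1, with the arginine-deficient diet in red at the left and the normal diet in blue at the right. Numbers mark replicates, and bars give mean and SD (n = 5). The diets are apart in Mamdc2 and Thbs2 and overlap in the other 4 genes.

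Fibrillar collagens, the rope-like chains of types I, III and V, did not differ between the diets beyond the spread between tumours. Of 6 tested chains 3 were higher and 3 lower, with log2 fold changes from -0.24 to 0.11. Col1a1, the alpha 1 chain of type I collagen, had 299.5, 204, 388, 588 and 532 CPM in deficient replicates 1 to 5, against 334, 367, 429, 271 and 568 CPM in normal replicates 1 to 5. Deficient tumours held both the lowest and the highest value, so that the normal range lay inside the deficient one. The means were 402 ± 159 CPM in deficient tumours and 394 ± 113 CPM in normal-diet tumours (SD, n = 5 per diet; log2 fold change 0.03, SE 0.28). The 95% interval, -0.57 to 0.63, leaves room for a moderate difference either way. Col1a2, the partner chain, averaged 1687 ± 413 CPM in deficient tumours and 1751 ± 187 CPM in normal-diet tumours (log2 fold change -0.05, SE 0.17), and Col3a1 489 ± 218 CPM in deficient tumours and 578 ± 159 CPM in normal-diet tumours (log2 fold change -0.24, SE 0.30). The type V chains, which set fibril width, namely Col5a1, Col5a2 and Col5a3, averaged 221 ± 77.2, 53.9 ± 13.3 and 35.6 ± 8.5 CPM in deficient tumours, against 217 ± 24.6, 50 ± 12.4 and 39 ± 18.3 CPM in normal-diet tumours (SD, n = 5 per diet; log2 fold changes 0.03, 0.11 and -0.13). In the usual type I trimer, a protein, alpha 1 chains outnumber the alpha 2 chain. Col1a2 RNA exceeded Col1a1 RNA per kilobase of exon in all 10 tumours, by 1.79 to 4.03 times on the deficient and 1.73 to 3.05 times on the normal diet. That ratio rests on the length of all annotated exons, 12426 bases in Col1a2 and 6563 bases in Col1a1. The transcripts also differ in GC content (46.8% in Col1a2 and 57.8% in Col1a1), and the part of either in the ratio was not tested.

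Basement membrane collagens did not pass the test either, with log2 fold changes from -0.01 to 0.26 over 4 chains. Col4a1 and Col4a2 encode the chains of the widespread type IV network and lie head to head on chromosome 8. Col4a1 had 318, 405, 162, 596 and 364 CPM in deficient replicates 1 to 5, against 412, 287, 424, 324 and 407 CPM in normal replicates 1 to 5. Deficient replicates 3 and 4 held the lowest and the highest value, outside the normal range on either side. Col4a2 ran from 265 to 460.3 CPM in deficient tumours and from 288 to 406 CPM in normal-diet tumours, with the same tumours at its ends on the deficient diet. Their log2 fold changes were -0.01 (SE 0.27) and 0.04 (SE 0.15). Their promoter windows, 250 bases before to 50 bases after each start, from RefSeq on GRCm38.p6, are printed because these genes moved together across the tumours. Col4a1 is at chr8:11312777-11313076 on the minus strand and Col4a2 at chr8:11312555-11312854 on the plus strand. Capitals mark the 78 bases that both windows share, read from opposite strands.
Col4a1: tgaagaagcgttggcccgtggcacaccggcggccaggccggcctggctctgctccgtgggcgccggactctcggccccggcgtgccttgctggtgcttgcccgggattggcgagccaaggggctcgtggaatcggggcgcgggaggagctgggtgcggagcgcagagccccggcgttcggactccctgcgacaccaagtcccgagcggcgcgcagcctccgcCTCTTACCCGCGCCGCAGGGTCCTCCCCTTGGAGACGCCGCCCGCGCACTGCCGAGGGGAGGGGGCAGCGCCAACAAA
Col4a2: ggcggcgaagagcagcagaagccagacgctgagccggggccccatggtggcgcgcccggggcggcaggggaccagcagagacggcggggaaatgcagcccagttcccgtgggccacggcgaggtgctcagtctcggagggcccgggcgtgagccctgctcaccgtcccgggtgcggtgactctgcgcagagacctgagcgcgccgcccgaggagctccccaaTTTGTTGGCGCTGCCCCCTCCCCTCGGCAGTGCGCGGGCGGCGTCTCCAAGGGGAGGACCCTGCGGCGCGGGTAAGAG
The windows hold 74.0% and 73.7% G and C, above the median of 52.7% over all promoters of the table. Of the exonic bases, 23.7% in Col4a1, 16.6% in Col4a2 and 33.5% in Col18a1, described next, lie inside another gene's body. Strand use in counting is not given, so reads there may not be told apart from those of the overlapping genes. Col15a1 and Col18a1, collagens of vessel and epithelial basement membranes, averaged 63.9 ± 14.3 and 74.7 ± 29.7 CPM in deficient tumours, against 53.4 ± 10.8 and 70.8 ± 20.5 CPM in normal-diet tumours (SD, n = 5 per diet; log2 fold changes 0.26, SE 0.19, and 0.08, SE 0.30). In Col15a1 the deficient tumours other than replicate 2 (67.4 to 74.5 CPM) were above every normal one (36.9 to 64.3 CPM), and replicate 2 had 38.8 CPM.

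Among the microfibril and network collagens 1 chain was higher and 3 lower. Type VI collagen makes beaded filaments around cells. Its chains Col6a1, Col6a2 and Col6a3 averaged 179 ± 67.9, 59.2 ± 28.7 and 122 ± 61.5 CPM in deficient tumours, against 205 ± 49.6, 61.2 ± 28.2 and 114 ± 32.6 CPM in normal-diet tumours (SD, n = 5 per diet; log2 fold changes -0.20, -0.05 and 0.10). Col8a1, a short-chain collagen of vessel walls, had 158, 218, 224, 194 and 196 CPM in deficient replicates 1 to 5, against 266, 255, 264, 277 and 199.9 CPM in normal replicates 1 to 5. Every deficient tumour was below the normal median, and normal replicate 5 alone kept the ranges from parting. Its log2 fold change was -0.35 (SE 0.13; edgeR adjusted p = 0.579, adjusted p = 0.0274 by limma voom). The fibril-associated chains among the members, which sit on the surface of fibrils, were lower in 3 of 3 without passing the test. That count leaves out chains tested outside the members, which split 7 higher to 6 lower over all types. Col20a1 among those was higher (log2 fold change 0.44, SE 0.19; edgeR adjusted p = 0.704). Col12a1, Col14a1 and Col16a1 averaged 42.4 ± 14.8, 13.4 ± 5.7 and 197 ± 88.9 CPM in deficient tumours, against 43.2 ± 19.4, 16.5 ± 2.8 and 249 ± 76.7 CPM in normal-diet tumours (SD, n = 5 per diet; log2 fold changes -0.03, -0.30 and -0.34). Over the 17 tested collagens 7 were higher and 10 lower, with a median of -0.03. Together the member collagens took 0.453 ± 0.137% of counts on the deficient and 0.489 ± 0.0622% on the normal diet (SD, n = 5 each).

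Fibronectin, Fn1, the glycoprotein on which cells first assemble a matrix, was the most abundant member by length, at 409 CPM per kilobase of exon over all tumours. Sparc, a collagen-binding glycoprotein, followed at 156 CPM per kilobase, Col1a2 at 138 CPM per kilobase and Fbln2, a fibulin, at 76.7 CPM per kilobase. Fn1 had 6047, 6919, 2249.8, 3876 and 4067 CPM in deficient replicates 1 to 5, against 5531, 3796, 5964, 5248 and 4126 CPM in normal replicates 1 to 5. Deficient replicates 1 and 2 were the highest of all and deficient replicate 3 the lowest. Its log2 fold change was -0.09 (SE 0.27, 95% interval -0.68 to 0.50). Sparc averaged 580.4 ± 87.7 CPM in deficient tumours and 605 ± 49.6 CPM in normal-diet tumours (log2 fold change -0.06, SE 0.13), with the smallest ratio between highest and lowest tumour of any tested member (1.52). Periostin, Postn, a glycoprotein of activated fibroblasts, averaged 42.1 ± 19.8 CPM in deficient tumours and 36.5 ± 17.8 CPM in normal-diet tumours (log2 fold change 0.20, SE 0.43), and deficient replicate 2 stood at 9.11 CPM. Tenascin C, Tnc, averaged 56.8 ± 8.78 CPM in deficient tumours and 64.8 ± 25.2 CPM in normal-diet tumours (log2 fold change -0.19, SE 0.22), but 72.6% of its exonic bases lie inside another gene's body, so its level is uncertain.

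The small leucine-rich proteoglycans, which coat collagen fibrils, showed no shared direction. Decorin (Dcn), lumican (Lum) and biglycan (Bgn) averaged 282 ± 35.1, 13.5 ± 6.91 and 234 ± 71.3 CPM in deficient tumours, against 297 ± 107, 13.6 ± 5.62 and 189 ± 25.9 CPM in normal-diet tumours (SD, n = 5 per diet; log2 fold changes -0.07, -0.02 and 0.31). Dcn was more even among deficient tumours (246 to 339 CPM) than among normal ones (186 to 429 CPM), a description with no test.

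Of the elastic fibre genes 3 were higher and 1 lower. Elastin, Eln, the core of elastic fibres, had 5.58, 2.52, 8.95, 14.9 and 16.9 CPM in deficient replicates 1 to 5, against 1.94, 8.89, 5.02, 3.47 and 2.78 CPM in normal replicates 1 to 5. Deficient replicates 3, 4 and 5 were above every normal tumour, replicate 3 only just, and deficient replicates 1 and 2 lay inside the normal range. Its log2 fold change was 1.13 (SE 0.51, 95% interval 0.03 to 2.23, adjusted p = 0.727 by edgeR). Without the 3 libraries richest in muscle it was 0.82. Fibrillin 1, Fbn1, the microfibril on which elastin is laid, averaged 61.3 ± 21.9 CPM in deficient tumours and 47.4 ± 9.18 CPM in normal-diet tumours, and Fbln2 539 ± 118 CPM in deficient tumours and 438 ± 108 CPM in normal-diet tumours (log2 fold changes 0.37, SE 0.26, and 0.30, SE 0.20). Of the exonic bases of Fbn1, 20.1% lie inside another gene's body. Fbln1 was scarce, at 1.02 to 3.60 CPM in deficient tumours and 1.51 to 4.04 CPM in normal-diet tumours (log2 fold change -0.05, SE 0.37).

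The lysyl oxidases oxidise lysines so that collagen and elastin can be cross-linked. Those among the members, Lox, Loxl1 and Loxl2, were higher in 3 of 3 without passing the test. The direction was not that of the whole family. Loxl3, tested outside the members, was lower (log2 fold change -0.41, SE 0.15; edgeR adjusted p = 0.621). Lox averaged 31.9 ± 16.1 CPM in deficient tumours and 26.5 ± 6.33 CPM in normal-diet tumours, with 57.8 CPM in deficient replicate 3. Loxl1 and Loxl2 averaged 15.6 ± 4.10 and 15.2 ± 3.81 CPM in deficient tumours, against 14.9 ± 6.52 and 11.8 ± 1.81 CPM in normal-diet tumours (SD, n = 5 per diet). The log2 fold changes of Lox, Loxl1 and Loxl2 were 0.27 (SE 0.30), 0.07 (SE 0.29) and 0.36 (SE 0.19). Of the exonic bases, 20.8% in Lox, 41.7% in Loxl2 and 28.2% in Loxl3 lie inside another gene's body.

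The stromal cell markers split evenly. The receptors Pdgfra, of fibroblasts, and Pdgfrb, of fibroblasts and pericytes, averaged 57.0 ± 10.8 and 125 ± 31.6 CPM in deficient tumours, against 65.2 ± 8.22 and 115 ± 20.1 CPM in normal-diet tumours (SD, n = 5 per diet; log2 fold changes -0.19, SE 0.15, and 0.12, SE 0.18). Fap, a surface protease of activated fibroblasts, had 2.82 to 10.5 CPM in deficient tumours and 2.37 to 8.02 CPM in normal-diet tumours (log2 fold change -0.16, SE 0.38). Acta2, the smooth muscle actin of myofibroblasts and vessel walls, averaged 22.8 ± 4.24 CPM in deficient tumours and 18.3 ± 4.03 CPM in normal-diet tumours (log2 fold change 0.32, SE 0.18). In bulk tumour RNA, fewer cells of a type and less RNA per cell cannot be told apart.

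Tumours on the same diet differed widely in this set. Taking each member's deviation from its mean over 10 tumours on the log2 scale, the median over the 39 members was -0.05, -0.46, -0.10, 0.28 and 0.27 in deficient replicates 1 to 5, against -0.35, -0.01, 0.25, -0.07 and 0.13 in normal replicates 1 to 5. Deficient replicates 4 and 5 had 31 of 39 members above their mean and normal replicate 3 had 33, while deficient replicate 2 and normal replicate 1 had 9 each. Deficient replicate 2 was low in periostin, Acta2 and Col3a1 but had the most Fn1, Thbs1 and Mamdc2. Members with GC-rich transcripts stood lower in some libraries and higher in others, as genes did in general. The correlation of deviation with GC content over the 39 members was -0.54 in deficient replicate 3, -0.42 in normal replicate 2 and -0.30 in normal replicate 4 (-0.49, -0.54 and -0.46 over all genes tested), and 0.45 in deficient replicate 4 and 0.49 in normal replicate 5 (0.29 and 0.43 over all genes), a description across genes, which are not independent. Col4a1, Col18a1, Col16a1 and Fn1 all had their lowest value in deficient replicate 3.

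**Figure D3:**
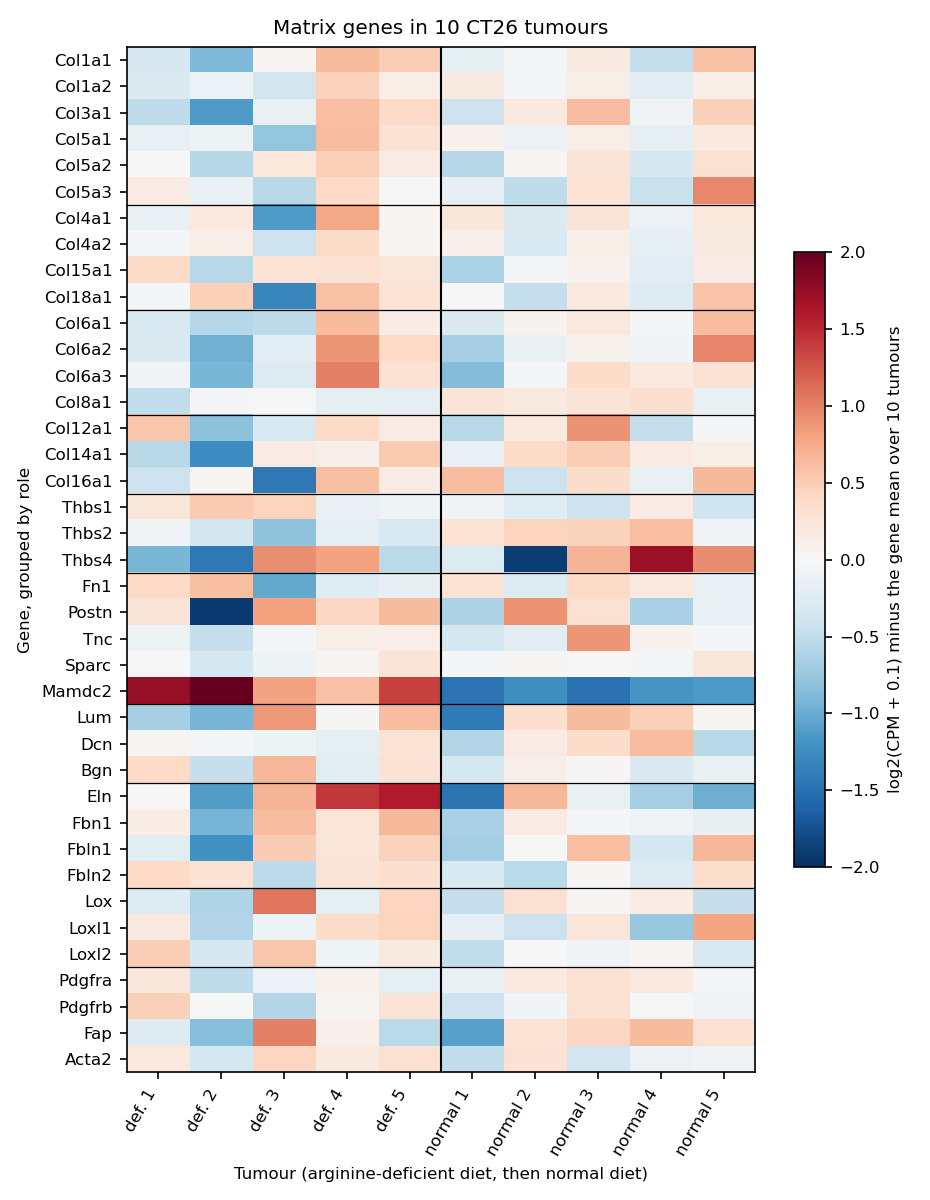
Deviation of each tested matrix gene (rows, grouped by role) from its mean over the 10 tumours, as log2(CPM + 0.1), with colours limited at 2 units either way. The 5 arginine-deficient tumours stand left of the line and the 5 normal-diet tumours right of it. Whole columns are red or blue over many rows within each diet, and the Mamdc2 row divides at the line.

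Genes whose products meet in a trimer or a fibre were compared across the 10 tumours in 7 pairs (log2 CPM, permutation tests of 100000 resamples within diet, p adjusted over the 7). In 4 pairs the adjusted p was under 0.05. Col4a1 and Col4a2 had Pearson's r of 0.93 (permutation p = 0.00029, adjusted p = 0.00108) and Spearman's rho of 0.89 (permutation p = 0.0025, adjusted p = 0.00583). Leaving out the 2 tumours farthest from the median of Col4a1 gave r = 0.94. Col6a1 and Col6a2 had r = 0.92 (permutation p = 0.00031, adjusted p = 0.00108) and rho = 0.92 (permutation p = 0.00038, adjusted p = 0.00266), with r = 0.80 after the same step. Col6a1 and Col6a3 had r = 0.84 (permutation p = 0.00308, adjusted p = 0.00539) and rho = 0.92 (permutation p = 0.00093, adjusted p = 0.00325), with r = 0.80 after it. Col1a1 and Col3a1, chains of fibrils that mix, had r = 0.89 (permutation p = 0.00147, adjusted p = 0.00343) and rho = 0.83 (permutation p = 0.00605, adjusted p = 0.0106). Without the 2 farthest tumours that relation rested at r = 0.75 and no longer passed (adjusted p = 0.0759).

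The other 3 pairs did not pass. The chains of type I collagen itself had r = 0.64 (permutation p = 0.0959, adjusted p = 0.134) and rho = 0.61 (permutation p = 0.094, adjusted p = 0.132), and r = 0.57 without the 2 farthest tumours. Col5a1 and Col5a2 had r = 0.29 (permutation p = 0.473, adjusted p = 0.473) and rho = 0.49 (permutation p = 0.172, adjusted p = 0.172), with r = 0.53 without the 2 farthest. Col1a1 and Fn1 ran in opposite senses without passing, at r = -0.52 (permutation p = 0.212, adjusted p = 0.248) and rho = -0.56 (permutation p = 0.152, adjusted p = 0.172), with r = -0.32 without the 2 farthest. Whether any pair was tighter than another was not tested. Centring on the diet means gave r of 0.95, 0.95, 0.88 and 0.92 for the 4 pairs that passed. The points also share library depth and GC trend, which that centring does not remove. Transcript GC content was 56.9% and 60.5% in Col4a1 and Col4a2, and 57.1%, 56.9% and 54.2% in Col6a1, Col6a2 and Col6a3. It was 57.8% in Col1a1 and 46.8% in both Col3a1, whose pair passed, and Col1a2, whose pair did not. Col5a1 and Col5a2 had 57.7% and 46.8%. The part of the GC trend in these correlations was not tested.

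**Figure D4:**
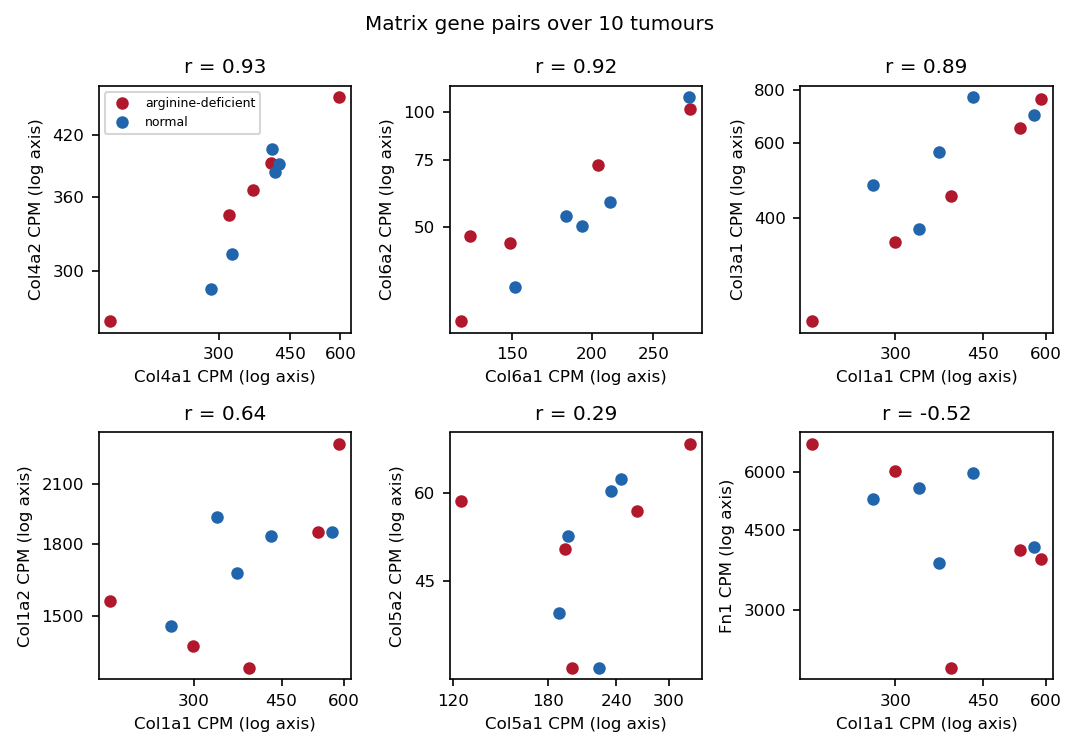
CPM of the second gene (vertical, log axis) against the first (horizontal, log axis) in 10 tumours for 6 of the 7 pairs, arginine-deficient in red and normal diet in blue, with Pearson's r above each panel. Points of both diets mix along the same line for Col4a1 with Col4a2 and for Col6a1 with Col6a2, and scatter for Col5a1 with Col5a2.

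As the diet lacked arginine, the share of arginine codons was computed from the coding sequences. It had a median of 4.36% in the 18 collagen chains and 4.71% in the other 23 members, against 5.59% in the 12846 tested protein-coding genes. The collagens stood apart by proline (16% of codons, against 5.48% over tested genes) and glycine (23.9%, against 6.25%). Across the 39 tested members Spearman's rho between log2 fold change and codon share was 0.06 for arginine, -0.15 for proline and -0.04 for glycine, given as a description. Lox had the highest arginine share, 9.98%, and Eln the lowest, 1.05%.

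Of the members, 26 were among the RefSeq promoters, with 31 windows of 300 bases that were searched on both strands. CCAAT occurred in 10 of 31 (32.3%, against 37.4% of all 32851 windows) and TATAAA in 5 (16.1%, against 13.6%). GGGCGG occurred in 19 (61.3%, against 35.7%), a share not adjusted for the GC content of the windows. TGATGNAA, the core of the element bound by ATF4, occurred in 0 (against 3.97%). At that share few matches would fall in 31 windows, so the 0 is not read as a result. Mamdc2 and Thbs1 were not among the 26 members, so their promoters were not searched. The letters of these motifs were counted separately whether or not they overlapped, and a match is not a shown site.

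Genes that make, modify or bind this matrix were taken as 8 lists outside the 41, with 158 tested genes. None was called by edgeR (against 0.0541% of all genes tested), while 13 had an unadjusted p under 0.05 (against 6.74%). DESeq2 called 3 (Pdpn and Fbln5 higher, Matn2 lower; against 0.949% of all genes) and limma voom 9 (against 2.88%). Collagen folding and modifying enzymes were higher in 20 of 30, with a median log2 fold change of 0.11. P4ha2, a prolyl hydroxylase that stabilises the collagen helix, averaged 88.8 ± 29.2 CPM in deficient tumours and 55.9 ± 7.58 CPM in normal-diet tumours (SD, n = 5 per diet; log2 fold change 0.67, SE 0.23; edgeR adjusted p = 0.548). It had 107 to 109.6 CPM in deficient replicates 2, 4 and 5 but 42.5 CPM in deficient replicate 3, and was called without that library. The cross-linking enzyme Loxl3 had a log2 fold change of -0.41, Sec24d, a coat protein of vesicles that carry procollagen, 0.30, and the prolyl isomerase Ppib 0.22. In Loxl3 and Ppib, 28.2% and 25.0% of the exonic bases lie inside another gene's body.

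Other collagen chains split 7 higher to 6 lower (median 0.03), and the type IV chain Col4a5 averaged 75.8 ± 11.8 CPM in deficient tumours and 106 ± 14 CPM in normal-diet tumours (log2 fold change -0.48, adjusted p = 0.369 by edgeR). Col20a1, Col28a1 and Col11a2 had log2 fold changes of 0.44, 0.82 and 0.55 at mean levels under 10 CPM. Laminins and their partners were lower in 10 of 13 (median -0.05), with Lamb1 at -0.22, Lama3 at -0.09, Lamb2 at -0.13 and Lamc3 at -0.24. The last pair changed sign when 1 library was left out, Lamb2 to 0.05 without deficient replicate 3 and Lamc3 to 0.07 without normal replicate 5, while Lamb1 and Lama3 were at -0.12 and -0.01 without deficient replicate 3. Matrix receptors were lower in 16 of 26 (median -0.06), with the syndecan Sdc3 at 0.27 and the integrins Itga9, Itgb8 and Itga10 at -0.50, -0.61 and -0.28. Itga9 had 42.4 CPM in normal replicate 5, while every other tumour of both diets was under 16 CPM, and its log2 fold change was 0.00 without that library. Itga10 was at -0.08 without normal replicate 2. Of the exonic bases, 49.0% in Itga9, 35.5% in Itga10 and 32.9% in Sdc3 lie inside another gene's body. Genes of TGF-beta signalling, a main inducer of collagen, were lower in 14 of 22 (median -0.05), with Ski at 0.23, Ltbp2 at -0.46, Tgif1 at 0.36 and Tgfbr3 at -0.27. Ltbp2 was at -0.30 without deficient replicate 3 and Tgif1 at 0.22 without deficient replicate 1.

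The other small proteoglycans and matrix proteins, higher in 13 of 23 (median 0.14), held 3 genes whose diets did not overlap, against 1.65% of all genes tested. All genes named from the other neighbouring lists overlapped. Fbln5, which helps elastic fibres assemble, had 35.0 to 60.2 CPM in deficient tumours and 20.0 to 32.2 CPM in normal-diet tumours (log2 fold change 0.80, SE 0.17; edgeR adjusted p = 0.163). Matn2, a matrilin, had 22 to 28.7 CPM in deficient tumours and 32.4 to 44.3 CPM in normal-diet tumours (log2 fold change -0.61, SE 0.13; edgeR adjusted p = 0.163). Tnn, tenascin N, had 2.76 to 6.56 CPM in deficient tumours and 7.15 to 11.7 CPM in normal-diet tumours (log2 fold change -0.86, SE 0.25; edgeR adjusted p = 0.402). Tnxb, tenascin X, had a log2 fold change of 0.44.

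Fibroblast markers were higher in 9 of 19 (median -0.02), and their summed level was 4994 to 7534 CPM in deficient tumours and 6729 to 8187 CPM in normal-diet tumours. Podoplanin, Pdpn, had 47.3 to 80.0 CPM in deficient tumours and 30.8 to 47.5 CPM in normal-diet tumours (log2 fold change 0.72, SE 0.17; edgeR adjusted p = 0.240), while S100a4, 72.6% of whose exon sequence overlaps the body of another gene, Twist2 and Gsn had log2 fold changes of -0.92, -0.28 and -0.25. S100a4 had 7.64 to 17.9 CPM in deficient tumours, against 68.8 CPM in normal replicate 5 and 10.3 to 15.4 CPM in the other normal tumours, and its log2 fold change was -0.08 without normal replicate 5. Twist2 was at -0.17 without normal replicate 1 and Gsn at -0.12 without deficient replicate 3. In Twist2, 46.5% of the exonic bases lie inside another gene's body. Pericyte and smooth muscle markers were higher in 9 of 14 (median 0.10). The desmin gene Des, also a gene of skeletal muscle, had 224 and 157 CPM in deficient replicates 3 and 4, against 1.86 to 30.7 CPM in the other 8 libraries, and Kcnj8, Myl9 and Mcam had log2 fold changes of -0.66, 0.35 and -0.12. Kcnj8 had 1.86 to 5.11 CPM in deficient tumours, against 9.76 CPM in normal replicate 5 and 3.51 to 4.43 CPM in the other normal tumours, and its log2 fold change was -0.30 without normal replicate 5. Myl9 was at 0.21 without deficient replicate 4 and Mcam at -0.07 without deficient replicate 3.

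Markers of other cells were read beside these results. Skeletal muscle markers were higher in 10 of 10 tested (median 3.52) with none called by edgeR (4 at an unadjusted p under 0.05), summing to 12.3 to 8578 CPM in deficient tumours and 12.6 to 767 CPM in normal-diet tumours. Endothelial markers were lower in 13 of 15 (median -0.15), summing to 347 to 413 CPM in deficient tumours and 409 to 442 CPM in normal-diet tumours. None was called by edgeR, and 2 were lower at an unadjusted p under 0.05 (against 6.74% of all genes tested in either direction). Of these, Robo4 did not overlap between the diets (13.9 to 18.8 against 19.0 to 21.3 CPM; log2 fold change -0.28), beside 1.65% of all genes tested, and Cldn5 overlapped. Macrophage markers were lower in 7 of 10 (median -0.03), summing to 1785 to 1974 CPM in deficient and 1395 to 1990 CPM in normal-diet tumours. Adipocyte markers were lower in 5 of 7 (median -0.46), summing to 47.2 to 144 CPM in deficient and 63.7 to 105 CPM in normal-diet tumours, and Schwann cell and nerve markers higher in 4 of 5 (median 0.12), summing to 66.7 to 83.1 CPM in deficient and 58.4 to 89.0 CPM in normal-diet tumours. Epithelial markers were sparse on both diets, with 5 of 9 tested, 3 of them lower, and sums of 15 to 32.4 CPM in deficient tumours and 21.5 to 40.2 CPM in normal-diet tumours, although the tissue is labelled tumour from a carcinoma line. Keratinocyte markers of skin were nearly absent, at 3.59 to 7.60 CPM in deficient tumours and 3.62 to 4.73 CPM in normal-diet tumours, with 2 of 9 tested. Acta1, Tcf21, Itgam and Dsg3 were among the 4263 genes of the count table listed at 0 in all libraries, and their 0 is not read as absence. The part of any of these cell types in the matrix values was not tested.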

How the data were processed

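The deposited table holds whole-number read counts per gene for 10 tumours, not normalized by the authors. The submitters' processing notes name FastQC, STAR, featureCounts and the mm10 build, and the sources used here give no version, strand or overlap setting. Per the labels' protocols, RNA came from a TRIzol extraction and was sequenced by Illumina methods. Libraries titled Arg were taken as the deficient diet and those titled Control as the normal diet, after the series' design. No 2 libraries agreed within sampling noise (chi-square per degree of freedom at least 16.8), so none was merged as a repeat deposit; this does not show that each came from a mouse of its own.

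Counts were tested with edgeR 4.0.16 under R 4.3.3 (quasi-likelihood, TMM, filterByExpr with a minimum count of 10 and a total of 15, diet as the only term), which kept 12929 genes with 99.9% of counts; p-values were adjusted by Benjamini-Hochberg over these with a threshold of 0.05. A standard error is the log2 fold change divided by the root of its F statistic. CPM values use TMM factors. Symbols, positions and coding sequences came from GENCODE M21 (21379 identifiers matched by version, 437 by another version, 33 unmatched) and promoters from RefSeq. Depth was 12013178 to 31530123 counts. The biological coefficient of variation, the spread beyond counting noise, was 26.5%. The edgeR step and the pair test were tested on simulated data. Alternatives were other size factors and filters, DESeq2 1.42.0, limma 3.58.1 voom, a replicate block, each library left out, the 3 muscle-rich libraries left out, and GC and gene length slopes as covariates.

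The members, lists and tests were chosen with earlier results of these data known. Every member is named; from each neighbouring list up to 4 genes of smallest p averaging at least 2 CPM are named.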

Additional observations from a re-analysis of the deposited data

Results flagged for a closer look

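In 78 groups of 5 tumours (39 members on 2 diets), 7 had a highest or lowest tumour far from the other 4 by Dixon's test, which marks about 1 group in 20 by chance. Deficient replicate 2 was lowest in 3 of them. Col15a1 had 38.8 CPM there, against 67.4 to 74.5 CPM in the other deficient tumours. Postn had 9.11 CPM there, against 41.4 to 60.4 CPM. Acta2 had 15.8 CPM there, against 23.1 to 27.0 CPM. Deficient replicate 3 was lowest in Fbln2, at 331 CPM, against 567 to 624 CPM in the other deficient tumours. On the normal diet, replicate 5 was lowest in Col8a1 (199.9 CPM, against 255 to 277 CPM) and highest in Sparc (691 CPM, against 572 to 598 CPM), and replicate 1 was lowest in Fap (2.37 CPM, against 6.22 to 8.02 CPM).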

How the results depend on the processing

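Under 18 alternatives to the edgeR fit the log2 fold change of Mamdc2 ran from 2.64 to 3.24 and was called in 15. Over the whole table, DESeq2 called 131 genes (69 higher, 62 lower), limma voom 373 (205 higher, 168 lower), the replicate block 1, the fit with GC and gene length slopes 68 (35 higher, 33 lower), and the fit without the 3 muscle-rich libraries 18; leaving out 1 library gave 0 to 16, the 0 being without normal replicate 1 or 3. Of the matrix members, DESeq2 called 2, limma voom 3 and the GC and length fit 2; leaving out 1 library gave 0 to 1, the 0 being without normal replicate 1 or 3 (4 and 3 at an unadjusted p under 0.05). Of the neighbouring lists, DESeq2 called 3, limma voom 9 and the GC and length fit 1 (Matn2), and leaving out 1 library gave 0 to 1. Replicate numbers gave no sign of pairing the tumours, as same-numbered deviations correlated at 0.127, -0.349, -0.00608, 0.127 and 0.183. The labels do not state a pairing either way, and these values cannot settle it. With the replicate block 0 members were called (3 at an unadjusted p under 0.05), Mamdc2 having a log2 fold change of 2.76 (adjusted p = 0.0818 by edgeR). Thbs2 stayed between -0.77 and -0.53 and was called in 3 alternatives. Thbs1 (0.31 to 0.53) and Eln (0.82 to 1.55) were called in 0, and Col8a1 (-0.43 to -0.28) in 1. Of the 34 members not past an unadjusted p of 0.05, 21 changed sign under at least 1 alternative, with log2 fold changes up to 0.27 in size. The causes were not tested. With 5 libraries per diet the median standard error of a matrix gene's log2 fold change was 0.27.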
